A study of Mus musculus with 48 samples.

Results

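The genes described here encode the proteins by which muscle cells hold on to the matrix around them: 11 integrin alpha chains, 4 integrin beta chains, the kinases Ptk2 (focal adhesion kinase), Src and Ilk, 12 adaptor proteins of focal adhesions, the 4 syndecans with Cd44, dystroglycan with 3 sarcoglycans, and the ligand fibronectin (Fn1). These 40 genes were taken by name from 47480 gene symbols in the count tables. The 48 RNA-seq libraries came from C2C12, a mouse skeletal muscle line that grows as myoblasts and fuses into myotubes when serum is withdrawn. Myoblasts and differentiated cells were cyclically stretched on flexible collagen-coated plates or kept on such plates without stretching, and collected at 1 h, 3 h and 6 h, with 4 libraries in each of the 12 groups. Neither genotype nor drug treatment differed between groups, all cells came from the same line, and the differentiated cells had been switched, near confluence, to medium with horse serum. The labels call the molecule nuclear RNA, whereas the methods describe mRNA libraries.

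Integrins are pairs of an alpha and a beta chain that bind matrix proteins outside the cell and, through adaptor proteins such as paxillin and kindlin, the actin cytoskeleton inside it. Force on this link exposes binding sites in the adaptors and activates Ptk2 and Src, which phosphorylate Bcar1 (p130Cas), a docking protein for Crk and Crkl. Syndecans are heparan sulfate carrying co-receptors of the same adhesions, and skeletal muscle has a parallel link to laminin through dystroglycan and the sarcoglycans, whose loss causes muscular dystrophy.

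The libraries held between 48447318 and 77080730 counts, of which these genes took between 1.02% and 1.78%. The 8 markers of differentiated muscle summed to between 6.97 and 17.1 CPM (counts scaled to library size, on a scale shared by all libraries) in myoblasts. After differentiation they summed to between 11028 and 13758 CPM, so by these markers the labels of the stages held in every library. The 3 myoblast markers, chiefly Myod1, did not separate the stages. They summed to between 154 and 198 CPM in myoblasts and to between 180 and 246 CPM after differentiation. Markers of leukocytes (at most 2.5 CPM), endothelial cells (at most 0.792 CPM) and adipocytes (at most 0.0361 CPM) were near 0, and those of epithelial cells, chiefly Cdh1, summed to at most 2.75 CPM in myoblasts and to at most 18.2 CPM after differentiation. In the differentiated cells stretched for 1 h, replicate 4 came from an experiment with no other library here, and it was the outermost of its group for 31 of 39 tested members (79.5%, against 66.3% of all genes), so values that rest on it are given with and without it. In myoblasts at 1 h, replicate 7 stood apart in both groups, by chi-square per degree of freedom between 2 libraries. It lay at 105 to 117 from the other non-stretched libraries, against 8.01 to 24.4 among those. For the stretched libraries the values were 139 to 227, against 6.14 to 43.6. No pair of replicates was alike enough to be a library deposited more than once. By the titles and methods, the libraries of a stage came from a few independent experiments, most with a pair of samples in each group. P-values therefore measure the spread between samples that partly share an experiment.

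Most of these adhesion genes differed between the non-stretched stages, as did most of all genes. Of the 40 members, 38 differed between differentiated cells and myoblasts in edgeR's test (adjusted p under 0.05, 12 libraries per stage, time as a covariate), 28 higher (45.0% of all genes) and 10 lower (44.4%) in differentiated cells. The same test was passed by 89.4% of all genes, so the count does not set the members apart. Of the 40 members, 19 also changed by 0.58 or more on the log2 scale, against 52.0% of all genes, so this count does not set them apart either. Both the 28 and the 19 include Itga8, Itga9 and Itga11, which had too few counts for the stretch tests in myoblasts. Their place in the stage test rests largely on the differentiated libraries, where they are higher, so their differences are a description only. Stage and experiment cannot be told apart in these data, and in bulk RNA neither can fewer cells of a type and less RNA per cell.

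Among the integrin alpha chains, Itga7, the partner of Itgb1 in the laminin receptor of mature muscle, rose from 350 ± 12.6 CPM in myoblasts to 1652 ± 54.7 CPM in differentiated cells (SD, n = 12 each), a log2 fold change of 2.21. Every differentiated library (lowest 1575 CPM) lay above every myoblast library (highest 370 CPM). Per kilobase of the longest coding transcript, Itga7 made up 31% of the summed level of the 11 alpha chains in myoblasts and 69.4% in differentiated cells. The laminin receptor chain Itga3 fell, from 229 ± 6.38 to 121 ± 5.93 CPM (log2 change -0.96), also without overlap. The fibronectin receptor chain Itga5 (207.5 against 217 CPM, adjusted p = 0.0827 by edgeR) and the laminin receptor chain Itga6 (266 against 275 CPM, adjusted p = 0.302 by edgeR) did not pass the test.

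Several alpha chains were close to absent from myoblasts. Itga10, a collagen receptor chain, went from 2.30 ± 0.321 CPM to 33.1 ± 2.66 CPM with differentiation, and 31.8% of its stretches of 31 bases also occur in other transcripts, chiefly of the overlapping gene Gm42957, so its counts are uncertain. Itga4, the chain that binds Vcam1 and fibronectin, had 3.38 ± 0.995 and 31.3 ± 2.88 CPM. Itga9 had between 0 and 5 counts in a myoblast library and between 120 and 313 in a differentiated one, the collagen receptor chain Itga11 between 2 and 15 against 155 and 364, and Itga8 between 0 and 2 against 3 and 15. Itga1, another collagen receptor chain, stayed under 1 CPM in the non-stretched libraries of both stages. It was still 3.40-fold higher in differentiated cells, without overlap, at between 2 and 19 counts in a myoblast library and 27 and 53 in a differentiated one.

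Of the beta chains, Itgb1, the common partner of most alpha chains, supplied 91.5% of the level per kilobase of the 4 beta chains in myoblasts and 76.3% in differentiated cells. Itgb5, which pairs with Itgav to bind vitronectin, rose from 58.1 ± 4.62 to 352 ± 20.4 CPM (log2 change 2.57) and from 5.89% to 21.1% of the beta chains. Itgb3 went from 35.8 ± 5.19 to 47.6 ± 2.31 CPM and Itgb8 from 13.4 ± 1.94 to 39.9 ± 4.06 CPM. All 4 beta chains were higher in differentiated cells.

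The kinases went the other way. Src fell from 135 ± 5.68 to 61.7 ± 1.79 CPM (log2 change -1.16), Ptk2 from 163 ± 2.85 to 111 ± 2.28 CPM (-0.59) and Ilk, a pseudokinase that links beta chains to parvin, by 0.13 on the log2 scale with overlapping groups. The 12 adaptors moved little: 10 were higher and 2 lower (Crk by -0.42, Parva by -0.26), and none reached a log2 fold change of 0.58. The largest rise among them was that of Pxn (paxillin), at 0.56.

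The co-receptors changed places. Cd44, a hyaluronan receptor, fell from 1086 ± 47.7 to 465 ± 39.4 CPM, and Sdc3 from 159 ± 23.1 to 41.9 ± 2.77 CPM, while Sdc2 rose from 188 ± 9.62 to 724 ± 22.7 CPM. Of the level per kilobase summed over the 4 syndecans and Cd44, Cd44 had 45.2% in myoblasts and 18.4% in differentiated cells, and Sdc2 had 12.5% and 45.7%. Sdc4 differed by only 0.08 on the log2 scale between the stages (adjusted p = 0.0117, edgeR), with overlapping groups. The 4 members of the laminin link of muscle all rose, with Dag1 (dystroglycan) 3.97-fold, Sgcb 3.41-fold, Sgcd 1.87-fold and Sgca, which is specific to striated muscle, from 1.93 ± 0.303 to 58.5 ± 2.23 CPM. Of 17 other genes of the dystrophin complex, 16 were tested, with 12 higher (45.0% of all genes) and 3 lower (44.4%).

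**Figure D1:**
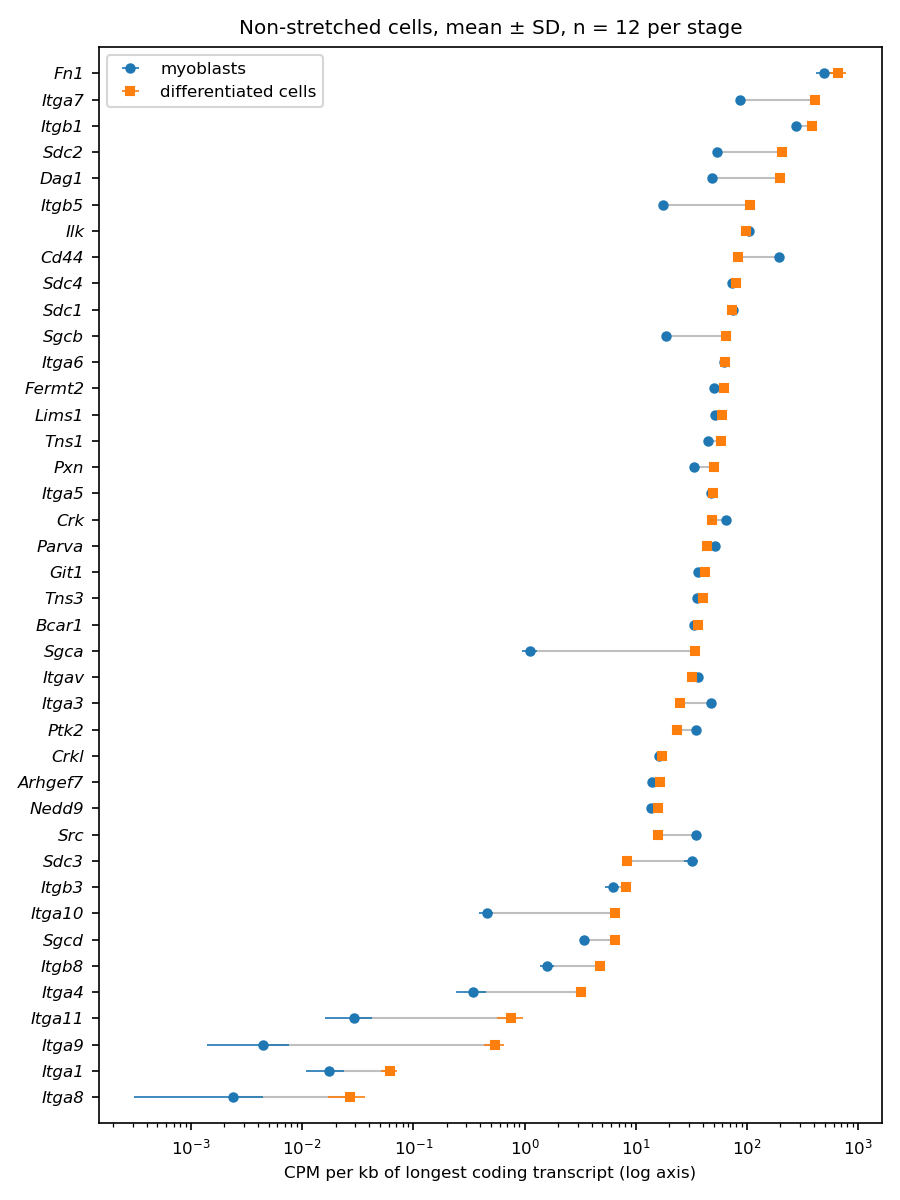
Levels of the 40 genes in non-stretched cells, in CPM per kilobase of the longest coding transcript on a log axis, with circles for myoblasts, squares for differentiated cells and bars for the SD over 12 libraries. Fn1 (497 and 655), Itgb1 (275 and 386) and, in differentiated cells, Itga7 (411) were highest, and Itga1, Itga8, Itga9 and Itga11 lowest.

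On the per kilobase scale of that plot Fn1 led in both stages, at 497 ± 77.1 in myoblasts and 655 ± 128 in differentiated cells, followed in myoblasts by Itgb1 (275 ± 13.2), Cd44 (193 ± 8.50) and Ilk (105 ± 3.20). In differentiated cells the next were Itga7 (411 ± 13.6), Itgb1 (386 ± 14.4), Sdc2 (205 ± 6.44) and Dag1 (196 ± 9.71). Itga7 and Itgb1 lay within 2 SD of each other there, as did Sdc2 and Dag1.

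Stretching moved these genes by small amounts. The stretch comparisons asked which genes respond to cyclic stretch at each stage and time, with 8 libraries each. In myoblasts 37 of the 40 members had enough counts to be tested (Itga8, Itga9 and Itga11 did not), and in differentiated cells 39 (all but Itga8). After 1 h of stretching in myoblasts 4 of 37 passed edgeR's test (10.8%, against 5.92% of all genes), 3 higher (background 1.67%) and 1 lower (4.24%), but 0 of them without non-stretched replicate 10. After 3 h 11 of 37 passed (29.7%, against 31.9%), 9 higher (16%) and 2 lower (15.8%). After 6 h it was 15 of 37 (40.5%, against 27.2%), 7 higher (14.1%) and 8 lower (13.0%). In differentiated cells 1 of 39 passed after 1 h (2.56%, against 0.663%), and it was higher (0.193% of all genes were higher and 0.470% lower). After 3 h 9 of 39 passed (23.1%, against 22.2%), 8 higher (10.8%) and 1 lower (11.4%), and after 6 h 10 of 39 (25.6%, against 22.3%), 4 higher (11.5%) and 6 lower (10.8%). The members' shares after 3 h and, in differentiated cells, after 6 h were thus near that of all genes.

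Of all these changes, only the decreases of Itga1 and Itga11 in differentiated cells after 6 h also reached a log2 fold change of 0.58 (2 of 39, against 2.04% of all genes), and both genes have few counts. Both calls were lost when all 24 libraries of the stage were fitted together, with an adjusted p by edgeR of up to 0.109 for each over the alternatives, and that of Itga11 also without any of 5 libraries (non-stretched replicates 9 and 10, stretched replicates 7, 8 and 10). No member reached it in myoblasts at any of the 3 times (1.25%, 1.71% and 2.17% of all genes did) or in differentiated cells after 1 h or 3 h (0.270% and 1.63%). The median log2 fold change of the members tested lay between -0.02 and 0.04 in the 6 comparisons, and that of all genes between -0.01 and 0.00. Stretched libraries lay wholly above the non-stretched ones for 6 members and wholly below for 4 in myoblasts after 1 h (13.3% of all genes did either). After 3 h these numbers were 11 and 2 (30.8%) and after 6 h 6 and 8 (28.7%). In differentiated cells they were 3 and 0 after 1 h (6.37%), 6 and 1 after 3 h (25.9%) and 5 and 6 after 6 h (26.4%). Within each of the experiments that held both groups (B27 and B31 in myoblasts, B25 and B28 in differentiated cells), the 50 changes past the test had the direction of the pooled fit, which is a description only, since the same libraries gave the calls.

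**Figure D2:**
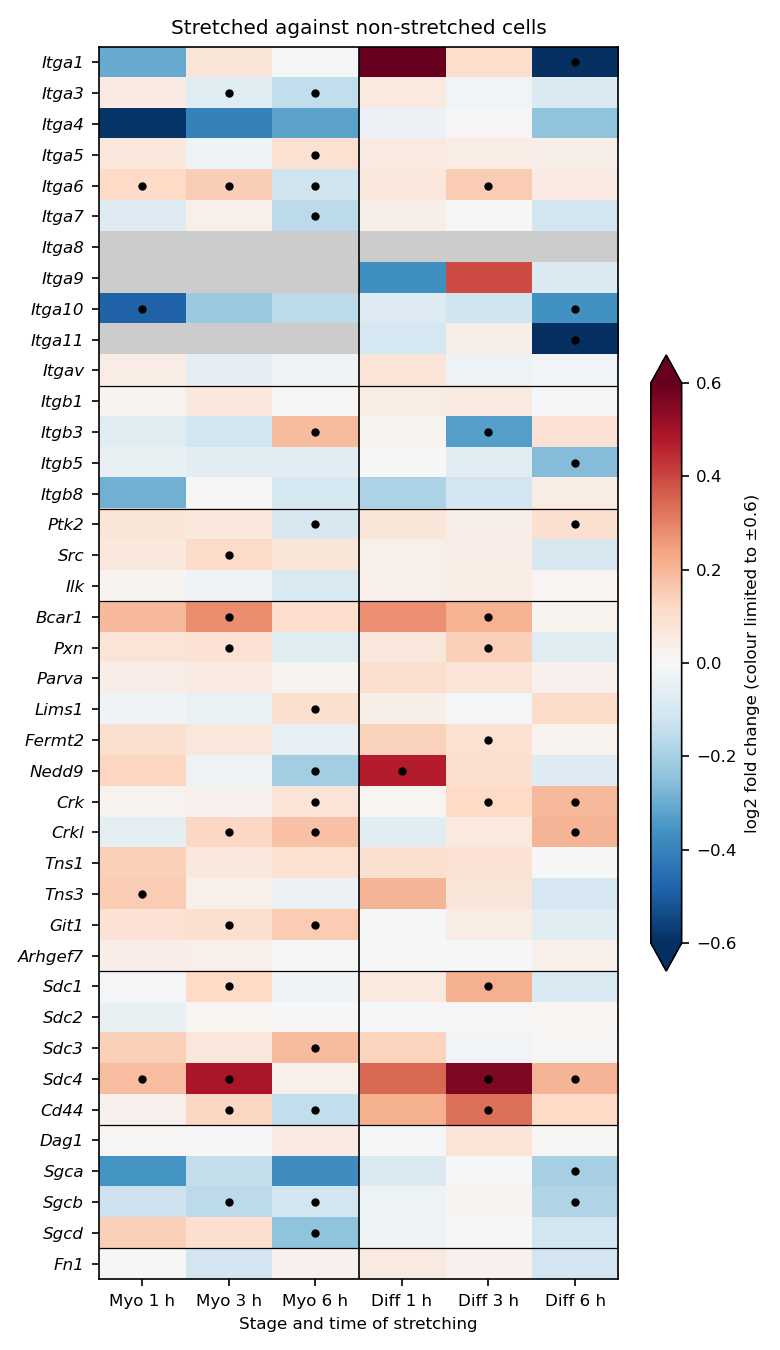
Log2 fold change of stretched against non-stretched cells for the 40 genes (rows, grouped by role) in the 6 comparisons (columns), with red for higher and blue for lower in stretched cells, colours limited to 0.6 in either direction, grey for genes not tested and dots for an adjusted p under 0.05 by edgeR. Sdc4 has a positive value in every column (only 0.03 in myoblasts at 6 h), with dots in 4 of them, and most other members stay pale.

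Syndecan-4, a co-receptor that signals with integrins in focal adhesions, had the largest increases at 3 h in both stages. The gene lies at chr2:164424247-164443887 on the minus strand (mm10, GENCODE vM21). In myoblasts after 3 h the non-stretched libraries had 191, 180, 164 and 166 CPM of Sdc4 and the stretched ones 250, 241, 246 and 254 CPM. The groups did not overlap, and the log2 fold change was 0.49 (0.41 to 0.57, plus and minus 2 standard errors, as in all intervals here; adjusted p = 3.74e-06 by edgeR). In differentiated cells after 3 h the values were 204, 205, 189 and 193 CPM without and 290, 287, 292 and 295 CPM with stretching. The log2 fold change was 0.56 (0.50 to 0.62, adjusted p = 1.51e-05 by edgeR), the second smallest adjusted p of all genes in that comparison. The difference between the stages, 0.07 (-0.05 to 0.18), did not pass the test.

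The increase of Sdc4 was smaller at the other times. After 1 h in myoblasts it went from 197, 191, 175 and 181 CPM to 221, 207, 206 and 214 CPM, again without overlap (log2 change 0.19, adjusted p = 0.0206 by edgeR). In differentiated cells at 1 h the stretched libraries had 303 (replicate 4), 253, 256 and 223 CPM against 202, 213, 198 and 202 CPM. All of them were higher, but the spread among stretched libraries was large and the change of 0.35 did not pass the test (adjusted p = 0.105 by edgeR), nor did that of 0.26 without replicate 4 (adjusted p = 0.0555 by edgeR). After 6 h the log2 fold change was 0.03 (-0.07 to 0.13) in myoblasts and 0.21 (0.09 to 0.32, adjusted p = 0.0311 by edgeR) in differentiated cells, with overlapping groups in both. That call in differentiated cells was lost without any of 5 of the 8 libraries (adjusted p up to 0.0805 by edgeR).

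Cd44 rose after 3 h in both stages, and in myoblasts it fell after 6 h. In differentiated cells after 3 h the non-stretched libraries had 481, 503, 435 and 455 CPM and the stretched ones 602, 565, 597 and 593 CPM, all of them higher (log2 change 0.33, 0.24 to 0.42, adjusted p = 0.000797 by edgeR). In myoblasts, where the gene was more abundant, it rose from 1145, 1114, 1098 and 1080 CPM to 1258, 1204, 1204 and 1205 CPM (0.12, adjusted p = 0.0015 by edgeR). The stages did not differ in this rise past the threshold (0.20, 0.10 to 0.31, adjusted p = 0.0629 by edgeR). After 6 h stretched myoblasts had 892, 948, 855 and 976 CPM against 1027, 1000, 1050 and 1039 CPM, all of them lower (-0.15, adjusted p = 0.0127 by edgeR).

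Of the other syndecans, Sdc1 rose after 3 h, in differentiated cells from 237.6, 232.7, 231.3 and 230.8 to 285, 274, 255 and 266 CPM (log2 change 0.21, adjusted p = 0.00207 by edgeR) and in myoblasts by 0.12 with overlapping groups. Sdc3 passed the test only in myoblasts after 6 h (0.19, adjusted p = 0.0472 by edgeR, overlapping). Sdc2, the most abundant syndecan of differentiated cells, passed it in none of the 6 comparisons, with log2 fold changes between -0.04 and 0.01.

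**Figure D3:**
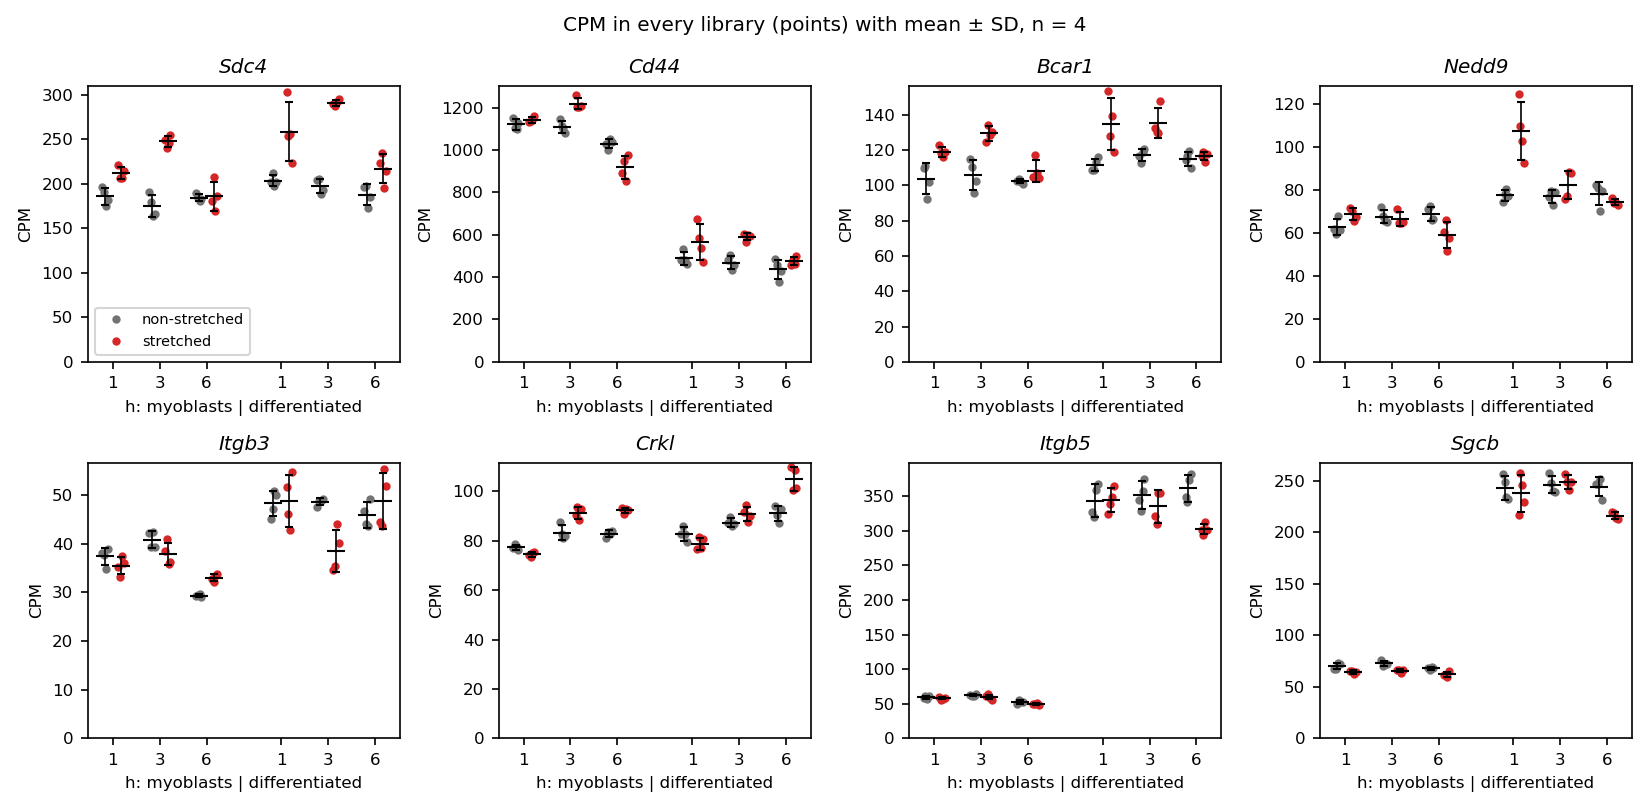
CPM of 8 genes in every library, non-stretched in grey and stretched in red, at 1 h, 3 h and 6 h in myoblasts (left of each panel) and differentiated cells (right), with the mean and SD of 4 libraries. The stretched libraries of Sdc4 at 3 h (241 to 254 CPM in myoblasts, 287 to 295 CPM in differentiated cells) stand clear of the non-stretched ones.

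Promoter sequence of Sdc4, Cd44 and the adaptor Nedd9, described next, is shown because these genes had the largest increases among members with at least 50 CPM. The sequences are RefSeq promoters on GRCm38.p6, from 250 bases before a RefSeq start through the first 50 bases after it, and all 3 genes lie on the minus strand. The Cd44 window spans the start of the gene in GENCODE vM21, whereas those of Sdc4 and Nedd9 lie inside the GENCODE genes (Nedd9 at chr13:41309581-41487362), at starts downstream of the outermost one. Such sequences were matched for 32 of the 40 members. Capitals mark a GC box (GGGCGG) and, in Sdc4, the NF-kappaB site. Sdc4 is at chr2:164443139-164443438, Cd44 at chr2:102901616-102901915 and Nedd9 at chr13:41358952-41359251.
Sdc4: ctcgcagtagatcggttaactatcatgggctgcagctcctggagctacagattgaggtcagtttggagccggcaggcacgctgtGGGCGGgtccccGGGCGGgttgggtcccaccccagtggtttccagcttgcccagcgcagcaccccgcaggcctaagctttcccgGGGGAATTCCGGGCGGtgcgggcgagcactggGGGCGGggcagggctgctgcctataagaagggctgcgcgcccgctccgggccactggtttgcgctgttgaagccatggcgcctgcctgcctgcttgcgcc
Cd44: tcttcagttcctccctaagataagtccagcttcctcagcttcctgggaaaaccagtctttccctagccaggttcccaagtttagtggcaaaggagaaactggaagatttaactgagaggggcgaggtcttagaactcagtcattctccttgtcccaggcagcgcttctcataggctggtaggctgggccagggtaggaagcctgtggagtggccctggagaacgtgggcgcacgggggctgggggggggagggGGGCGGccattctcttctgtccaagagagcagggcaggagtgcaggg
Nedd9: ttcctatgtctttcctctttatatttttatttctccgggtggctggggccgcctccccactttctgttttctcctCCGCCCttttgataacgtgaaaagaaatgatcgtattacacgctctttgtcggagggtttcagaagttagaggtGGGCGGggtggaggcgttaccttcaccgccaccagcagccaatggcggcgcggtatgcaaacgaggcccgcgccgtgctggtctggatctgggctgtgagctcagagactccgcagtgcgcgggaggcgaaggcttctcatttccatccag

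Both strands were searched. The Sdc4 window holds 4 GC boxes, starting at positions -166, -154, -72 and -50, and a match to the NF-kappaB site from -82 to -73, directly before a GC box and not overlapping it. Nedd9 holds 2 GC boxes, at -175 and -101, and Cd44 holds 1, starting at position 4. A GC box was present in 70.7% of 41 member promoters and in 35.7% of all 32851 promoters, and the NF-kappaB site in 4.88% and 4.51%. None of the 3 windows contains the AP-1 site TGANTCA (4.88% of member and 7.81% of all promoters), the TEAD site GGAATG (7.32% and 14.7%), the SRF CArG box (2.44% and 1.63%) or the E-box CANNTG (61.0% and 72.3%), which says only that these letters are not in these windows.

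Among the adaptors, Nedd9, a relative of Bcar1 that also docks Crk proteins, was the only member past the test in differentiated cells after 1 h. Non-stretched libraries had 74.5, 78.1, 80.3 and 77.1 CPM, and stretched ones 125 (replicate 4), 110, 103 and 92.7 CPM. All stretched libraries were higher (log2 change 0.47, 0.32 to 0.63, adjusted p = 0.0303 by edgeR), and without replicate 4 the change was 0.39 (adjusted p = 0.0114 by edgeR). Leaving out any of 6 other libraries took Nedd9 over the threshold, with adjusted p up to 0.14. After 6 h Nedd9 fell by 0.21 in myoblasts (adjusted p = 0.0319 by edgeR, overlapping) and had a log2 fold change of -0.08 in differentiated cells.

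Bcar1 rose after 3 h in both stages. In myoblasts it went from 115, 110, 95.6 and 103 to 125, 134, 129 and 130 CPM, without overlap (log2 change 0.28, 0.19 to 0.37, adjusted p = 0.000394 by edgeR). In differentiated cells it went from 117, 113, 119 and 120 to 133, 130, 130 and 148 CPM, again without overlap (0.21, adjusted p = 0.0069 by edgeR). At 1 h the changes were of like size, 0.20 in myoblasts (adjusted p = 0.06 by edgeR) and 0.27 in differentiated cells (adjusted p = 0.154 by edgeR), with no overlap in either, but they did not pass the test. Without replicate 4 the change in differentiated cells was 0.21 (adjusted p = 0.155 by edgeR).

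Crk and Crkl, the adaptors that bind phosphorylated Bcar1 and Nedd9, were higher at 6 h. Crkl in differentiated cells had 94.2, 90.5, 87.2 and 92.7 CPM without and 110, 101, 109 and 101 CPM with stretching (log2 change 0.20, adjusted p = 0.00555 by edgeR). In myoblasts the values were 80.9, 83.7, 82.9 and 83.9 against 93.2, 90.9, 93.0 and 92.5 CPM (0.18, adjusted p = 0.00106 by edgeR). The groups were apart in both stages, and in myoblasts Crkl was already 0.12 higher at 3 h. Crk in differentiated cells rose from 214, 215, 209 and 209 to 246, 238, 247 and 239 CPM after 6 h (0.20, adjusted p = 0.00185 by edgeR), and by 0.12 after 3 h. Its rise in myoblasts after 6 h was 0.08 (adjusted p = 0.0394 by edgeR).

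Other adaptors changed by less. Git1, a scaffold that binds paxillin, rose in myoblasts after 6 h from 126, 126, 123 and 129 to 139, 139, 143 and 134 CPM (log2 change 0.15, adjusted p = 0.00398 by edgeR) and by 0.09 after 3 h. Tns3, a tensin, rose in myoblasts after 1 h from 268, 270, 251 and 255 to 289, 297, 288 and 288 CPM (0.15, adjusted p = 0.0234 by edgeR). All stretched libraries of both genes were above the non-stretched ones. Pxn rose after 3 h in myoblasts (0.09) and differentiated cells (0.14), Fermt2 (kindlin-2, an integrin activator) after 3 h in differentiated cells (0.09) and Lims1 (PINCH-1) after 6 h in myoblasts (0.10). Parva, Tns1 and Arhgef7 passed the test in no comparison.

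Among the kinases, Src rose by 0.11 in myoblasts after 3 h (adjusted p = 0.00775 by edgeR). Ptk2 after 6 h was lower in stretched myoblasts, with 148, 155, 146 and 154 against 163, 158, 167 and 164 CPM (log2 change -0.10, adjusted p = 0.0233 by edgeR). In differentiated cells it was higher, with 120, 120, 118 and 118 against 112, 108, 110 and 113 CPM (0.10, adjusted p = 0.0327 by edgeR). The groups did not overlap in either stage, but the call was lost in 6 of 15 alternatives in myoblasts (adjusted p up to 0.0647 by edgeR; when non-stretched replicate 7, 9 or 10, or replicate 9 of the stretched ones, was missing, among others) and in 9 of 15 in differentiated cells (up to 0.108; without any library but non-stretched replicate 10, among others). Ptk2 is 1 of 3 members whose response differed between the stages, as given further on. Ilk passed the test in no comparison.

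At 6 h, 3 of 8 tested integrin alpha chains were lower in stretched myoblasts (13.0% of all genes) and 1 was higher (14.1%). In differentiated cells 3 of 10 were lower (10.8%) and 0 were higher (11.5%). Of the 8 tested in myoblasts, Itga3, Itga6 and Itga7 fell and Itga5 rose after 6 h. Itga7 went from 342, 341, 348 and 356 to 292, 306, 306 and 326 CPM, without overlap (log2 change -0.16, -0.22 to -0.09, adjusted p = 0.00512 by edgeR). Itga3 went from 225, 224, 240 and 235 to 207, 205, 199 and 213 CPM (-0.15, adjusted p = 0.00602 by edgeR). Itga5, in contrast, rose by 0.09 (adjusted p = 0.0238 by edgeR), a call lost in 6 of 15 alternatives.

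Itga6 changed direction in myoblasts. After 1 h it went from 266, 262, 278 and 271 to 282, 292, 301 and 297 CPM (log2 change 0.12, adjusted p = 0.0474 by edgeR), and after 3 h from 266, 263, 271 and 259 to 302, 293, 296 and 290 CPM (0.15, adjusted p = 0.000511 by edgeR). Stretched libraries were above the others at both times. After 6 h it was lower by 0.12 (adjusted p = 0.0309 by edgeR) with overlapping groups, and this last call was lost in 5 of 15 alternatives. In differentiated cells it rose after 3 h by 0.15 (adjusted p = 0.00996 by edgeR).

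In differentiated cells after 6 h the collagen receptor chains Itga1, Itga10 and Itga11 were lower, and no alpha chain passed the test in the upward direction. Itga10 went from 35.2, 35.6, 37.4 and 35.4 to 25.1, 25.5, 33.0 and 28.2 CPM, without overlap (log2 change -0.37, adjusted p = 0.00701 by edgeR). Itga11 had 2.86, 2.78, 3.95 and 3.70 against 1.72, 1.76, 3.00 and 2.27 CPM (-0.61, -0.99 to -0.23, adjusted p = 0.0407 by edgeR), and the groups overlapped. Itga1 had 0.75, 0.749, 0.726 and 0.669 against 0.446, 0.498, 0.488 and 0.477 CPM, between 27 and 46 counts in a library (-0.60, adjusted p = 0.0153 by edgeR). Itga1 overlaps Pelo and Gm49395 on the same strand, so its low counts are uncertain. In myoblasts Itga10 was also lower after 1 h, at 1.56, 1.29, 1.75 and 1.89 against 2.37, 2.04, 2.40 and 2.32 CPM (-0.49, adjusted p = 0.038 by edgeR). In those cells the 6 tested markers of differentiated muscle also had negative values (median log2 fold change -0.31), with 0 past the test. The 8 markers summed to between 9.87 and 17.1 CPM without and between 8.37 and 10.2 CPM with stretching. Their part in the fall of Itga10 was not tested.

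The beta chain Itgb3, which pairs with Itgav, went in opposite directions in the comparisons where it passed the test. In differentiated cells after 3 h it fell from 47.5, 48.8, 48.6 and 49.2 to 34.6, 35.4, 44.0 and 40.02 CPM, without overlap (log2 change -0.33, -0.46 to -0.20, adjusted p = 0.00533 by edgeR). In myoblasts after 6 h it rose from 29.3, 29.3, 29.6 and 29.0 to 32.7, 32.2, 33.4 and 33.6 CPM, also without overlap (0.19, adjusted p = 0.00121 by edgeR). Itgb5 fell in differentiated cells after 6 h, from 349, 342, 374 and 382 to 301, 295, 312 and 301 CPM (-0.26, -0.35 to -0.17, adjusted p = 0.00288 by edgeR), all stretched libraries being lower. Itgb1 passed the test in no comparison, with log2 fold changes between -0.01 and 0.06, nor did Itgb8.

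Where they passed the test, the sarcoglycans were lower in stretched cells. Sgcb after 6 h in differentiated cells went from 246.7, 247.0, 251.7 and 230.98 to 219, 219, 214 and 212 CPM (log2 change -0.18, adjusted p = 0.00496 by edgeR), and in myoblasts it fell by 0.16 after 3 h, from 76.2, 70.2, 72.1 and 72.4 to 66.7, 66.1, 63.8 and 66.0 CPM (adjusted p = 0.000804 by edgeR), and by 0.11 after 6 h. Sgca fell in differentiated cells after 6 h, from 59.1, 58.8, 62.2 and 54.6 to 51.8, 53.6, 50.3 and 49.3 CPM (-0.20, adjusted p = 0.00862 by edgeR), and Sgcd in myoblasts after 6 h, from 8.77, 9.22, 8.56 and 8.27 to 7.39, 7.01, 7.16 and 7.56 CPM (-0.24, adjusted p = 0.0098 by edgeR). In each of these the stretched libraries were all lower. Dag1, which anchors the complex to laminin, passed the test in no comparison. In differentiated cells after 6 h all 8 markers of differentiated muscle also had negative values, with a median log2 fold change of -0.08 and none was past the test (summed level 12027 to 12969 CPM without and 11047 to 12344 CPM with stretching), and their part in the result was not tested. In myoblasts the 6 of these markers that could be tested summed, with the rest of the list, to between 10.4 and 15.99 CPM without and between 9.38 and 11.1 CPM with stretching after 3 h (2 of 6 past the test, both lower), and to between 7.68 and 8.79 and between 6.97 and 8.22 CPM after 6 h (1 of 6, lower). The part of this in the falls of Sgcb, Sgcd and Itga7 was not tested either. Of the 3 myoblast markers, 1 was higher (log2 change 0.40) and 1 lower (-0.23) past the test in myoblasts after 6 h. In differentiated cells after 6 h, 1 of 3 was higher (0.51) and 0 lower. Past the test were 27.2% and 22.3% of all genes in these comparisons, and the part of these markers was not tested. Other markers moved at 6 h as well: in myoblasts the 3 endothelial markers summed to between 0.295 and 0.485 CPM without and 0.513 and 0.792 CPM with stretching (Kdr rose, the only one tested), and in differentiated cells the 4 epithelial markers to between 11.7 and 14.3 and between 9.21 and 12.1 CPM (Cdh1 fell, 1 of 2 tested).

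The ligand Fn1 passed the test in no comparison, and its libraries varied widely. In differentiated cells after 6 h it had 7121, 6628, 3997 and 5707 CPM without and 4117, 4288, 8278 and 4992 CPM with stretching, so that the highest value was a stretched library and the lowest a non-stretched one.

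Genes of the same structures that are not members were read from lists of related genes. Among 38 other focal adhesion proteins, 12 of 37 tested passed the test in myoblasts after 3 h (6 higher, 6 lower, 32.4% against 31.9% of all genes) and 14 of 37 after 6 h (9 higher, 5 lower, 37.8% against 27.2%). In differentiated cells it was 9 of 36 after 3 h (4 higher, 5 lower, 25% against 22.2%) and 10 of 36 after 6 h (7 higher, 3 lower, 27.8% against 22.3%), and none at 1 h in either stage. Of 17 other genes of the dystrophin complex, those past the test were all lower in myoblasts after 6 h (5 of 14 tested, 35.7% against 27.2% of all genes) and in differentiated cells after 3 h (4 of 16, 25% against 22.2%) and 6 h (2 of 16, 12.5% against 22.3%). In myoblasts after 3 h, 4 were lower and 2 higher (6 of 15, against 31.9%). Of 19 integrin ligands other than Fn1, 5 of 18 passed it in differentiated cells after 6 h (27.8% against 22.3%), 4 of them lower. Of 11 other integrin subunits, 3 of 6 tested were lower there (against 22.3% past the test of all genes) and none higher. At the other times and stage at most 3 of the 17 or 18 ligands tested passed the test (3 lower in myoblasts after 6 h, 1 higher in myoblasts after 1 h and after 3 h and in differentiated cells after 3 h) and at most 1 of the other subunits (higher in myoblasts after 6 h, lower in differentiated cells after 3 h). Past a log2 fold change of 0.58 were only Lama1, a laminin chain (-0.67, 26 to 63 counts, adjusted p = 0.0172 by edgeR, differentiated cells after 6 h) and Fermt3, the kindlin of blood cells (0.61, 16 to 35 counts, adjusted p = 0.0296 by edgeR, myoblasts after 6 h).

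The response changed with time for some members. In myoblasts the effect of stretching differed between 6 h and 1 h for 11 of 38 tested members (28.9%, against 21.1% of all genes), 2 higher (11.6%) and 9 lower (9.42%) at 6 h, in a model of all 24 libraries of the stage. Crkl went from -0.06 at 1 h to 0.18 at 6 h, a difference of 0.23 (0.16 to 0.30, adjusted p = 4.47e-05 by edgeR), and Itgb3 from -0.07 to 0.19. The 9 others went down, among them Itga6 from 0.12 to -0.12, a difference of -0.24 (-0.32 to -0.16, adjusted p = 0.000212 by edgeR), Nedd9 from 0.13 to -0.21 and Ptk2 from 0.07 to -0.10.

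In differentiated cells 7 of 40 members differed between 6 h and 1 h (17.5%, against 11.9% of all genes), 2 higher (6.73%) and 5 lower (5.13%) at 6 h. Crk and Crkl were the members that went up, Crkl by 0.27 (0.17 to 0.37, adjusted p = 0.0015 by edgeR). Nedd9 went from 0.47 to -0.08, a difference of -0.55 (-0.74 to -0.36, adjusted p = 0.000643 by edgeR), and -0.47 without replicate 4. Without that library Tns3 lost its call (-0.31 with and -0.21 without it, adjusted p = 0.0719 by edgeR) and the difference of Itga1 went from -1.24 to -0.86, while the other members that differed stayed past the threshold. The change of Sdc4 between these times did not pass the test in myoblasts (-0.16, adjusted p = 0.108 by edgeR) or differentiated cells (-0.14, adjusted p = 0.364 by edgeR), and its effect at 3 h was not part of this contrast.

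**Figure D4:**
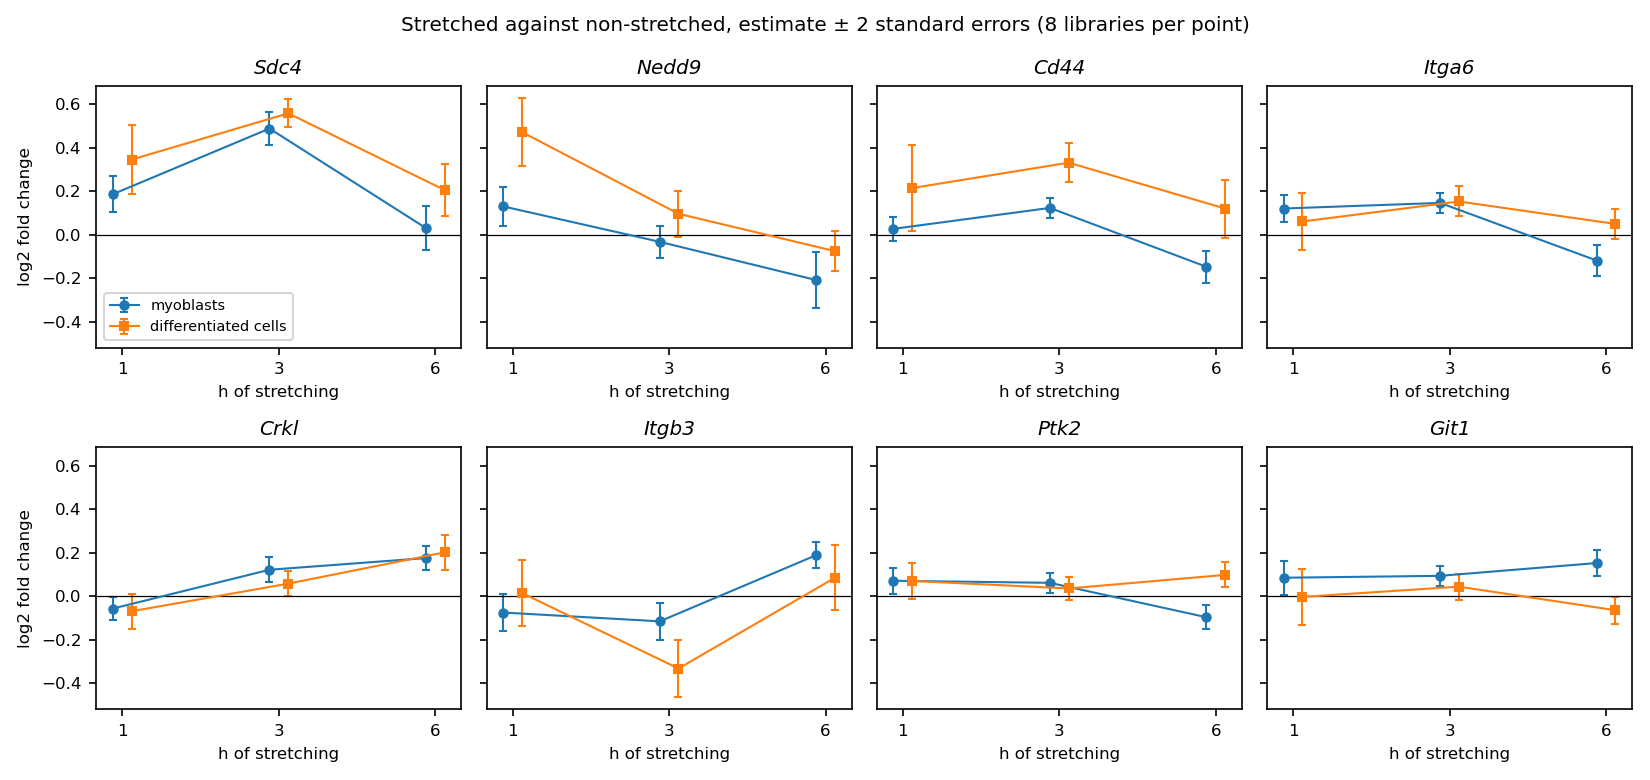
Log2 fold change of stretched against non-stretched cells, with plus and minus 2 standard errors, at 1 h, 3 h and 6 h for 8 genes, circles for myoblasts and squares for differentiated cells. Sdc4 is highest at 3 h in both stages (0.49 and 0.56), Nedd9 goes down with time, Crkl goes up, and Ptk2 and Git1 part between the stages at 6 h.

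Few members passed the test for a different response in the 2 stages, which does not show that the others responded alike. At 1 h no gene at all differed in its response between the stages by edgeR (0 of 39 members, 0% of all genes, 3 members at an unadjusted p under 0.05, and 0 members by DESeq2). At 3 h no member passed the test (0 of 39, against 1.79% of all genes), with 3 at an unadjusted p under 0.05 and 2 past the threshold by DESeq2. At 6 h 3 of 39 did (7.69%, against 5.18% of all genes), 1 higher (2.39%) and 2 lower (2.79%) in differentiated cells, and by DESeq2 7 members did. The response of Ptk2 was 0.19 higher in differentiated cells than in myoblasts (0.11 to 0.26, adjusted p = 0.00937 by edgeR), that of Git1 0.22 lower (difference -0.22, -0.31 to -0.14, adjusted p = 0.00815 by edgeR) and that of Src 0.18 lower (difference -0.18, adjusted p = 0.0385 by edgeR). The calls of Ptk2 and Git1 held in 22 of 22 alternatives and that of Src in 7 of 22, with an adjusted p by edgeR of up to 0.204 and a loss without any of 13 of the 16 libraries (all but stretched replicate 7 of the myoblasts, and non-stretched replicate 9 and stretched replicate 10 of the differentiated cells). Itgb5 (-0.20, adjusted p = 0.0565 by edgeR) and Cd44 (0.26, adjusted p = 0.0779 by edgeR) missed the threshold.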

How the data were processed

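RNA-seq of 48 C2C12 libraries was analysed, in 12 groups of 4 taken from the sample titles. The authors sequenced stranded mRNA libraries, processed them with STAR and Salmon on mm10 and deposited, per stage, a table of whole-number counts per gene symbol without normalization. All columns were used (0 left out). DESeq2, named in the submitters' processing notes, left no normalized values in these tables. Salmon divides reads between genes that share sequence, so counts of such genes are uncertain.

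Genes were filtered with filterByExpr, scaled by TMM and tested with edgeR 4.0.16 in R 4.3.3 (quasi-likelihood, two-sided), with p-values adjusted by Benjamini-Hochberg over all genes and a threshold of 0.05. Stretched and non-stretched libraries were compared at each time (8 libraries), effects at 6 h and 1 h within a stage (24), effects between stages at each time (16) and non-stretched stages (24). Log2 fold changes come from these fits. CPM use TMM factors over all 48 libraries. Members and lists were chosen with earlier results of these data known. Values per library are given for members past the test with a log2 fold change of at least 0.58 and for the 4 with the smallest adjusted p in each comparison, and, chosen after their values were seen, for further members (Cd44, Bcar1, Sdc4, Itga3, Itga10, Ptk2, Sgca, Sgcd and Fn1). Genes of the related lists were named past the test and that fold. Promoters stand in for the protein tails first planned, which were not analysed here. The GC box, NF-kappaB and E-box motifs were chosen after seeing the data.

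Alternatives were RLE scaling, DESeq2 1.42.0, omitting that filter, a minimum of 10 counts per library, the experiment as a covariate (one title reads B231 and was taken as B31), the replicate number as a block, all 24 libraries of a stage in 1 model, and leaving out each library. At this depth of 48447318 to 77080730 counts, genes under about 1 CPM have few counts and are measured least precisely.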

Additional observations from a re-analysis of the deposited data

Results flagged for a closer look

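In stretched myoblasts at 1 h, Tns3 in replicate 8 (297 CPM) stood apart from the other 3 libraries (288 to 289 CPM). It was the only such sample among 46 groups examined, and chance gives about 1 in 20 groups.

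The effect of stretching on 11 of 38 tested members (28.9%, against 21.1% of all genes) differed between 6 h and 1 h in myoblasts (interaction term, edgeR). The difference in log2 fold change was 0.26 for Itgb3 and 0.23 for Crkl. It was -0.20 for Itga3, -0.24 for Itga6, -0.17 for Ptk2, -0.15 for Pxn, -0.15 for Fermt2, -0.34 for Nedd9, -0.19 for Tns3, -0.18 for Cd44 and -0.38 for Sgcd. In differentiated cells the effect differed between these times for 7 of 40 members (17.5%, against 11.9% of all genes). The difference was 0.18 for Crk and 0.27 for Crkl, and -1.24 for Itga1, -0.27 for Itgb5, -0.26 for Bcar1, -0.55 for Nedd9 and -0.31 for Tns3. Itga1 has few counts, and Tns3 kept its call in 9 of 30 alternatives.

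At 6 h the effect differed between differentiated cells and myoblasts for 3 of 39 members (7.69%, against 5.18% of all genes). The difference was 0.19 for Ptk2, -0.18 for Src and -0.22 for Git1, and Src kept its call in 7 of 22 alternatives.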

How the results depend on the processing

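Of the results past the test, no log2 fold change changed sign under the alternatives. Among members not past it, the sign of 12 of 39 turned in differentiated cells at 1 h without stretched replicate 4 (Sdc3, for example, from 0.13 to -0.03). Of 750 values of the 50 stretch changes, 614 stayed past the threshold and 136 did not, and of 540 values of the 18 changes between 6 h and 1 h, 497 stayed. The calls of Sdc4, Cd44, Bcar1 and Itga6 at 3 h in both stages, of Crkl at 6 h in both stages, and of Itgb3, Sdc1, Itga7, Itga10, Itgb5, Sgca and Sgcb where their values per library are given at 3 h or 6 h held in all 15 alternatives, whereas each of the 4 calls in myoblasts at 1 h was lost without at least 3 of 8 libraries. In myoblasts at 1 h the count of members past the test was 4 and became 7 under DESeq2, 7 with experiment as covariate and 7 with all 24 libraries of the stage, and 0 to 6 when a library was left out (0 without non-stretched replicate 10). In differentiated cells at 1 h the count of 1 became 3 with DESeq2, 2 given experiment as covariate, 3 with all 24 libraries, and 0 to 3 when a library was left out (0 when any non-stretched library, or replicate 7 or 8 of the stretched ones, was missing, and 3 without stretched replicate 9). In myoblasts the count of 15 at 6 h became 9 to 15 (9 when non-stretched replicate 7, 9 or 10, or replicate 9 of the stretched ones, was missing). For 6 h against 1 h in differentiated cells, 7 members became 11 with the experiment as a covariate and 3 to 9 when a library was left out (3 without non-stretched replicate 7 at 1 h or stretched replicate 7 at 6 h). Between stages at 3 h, 0 members became 2 under DESeq2, under the minimum of 10 counts and given experiment as covariate, and 0 to 2 when a library was left out, and at 6 h, 3 became 7 under DESeq2, 5 given experiment as covariate and 2 to 4 when a library was left out. Among single calls, those of Lims1, Crk and Sdc3 in myoblasts at 6 h, Itga6 in myoblasts at 1 h, Fermt2, Crk and Pxn in differentiated cells at 3 h and Ptk2 in differentiated cells at 6 h were lost in 7 to 9 of 15 alternatives. The cause of these changes was not tested. Same-numbered libraries deviated together in some pairs and not in others (r over 0.1 in 11 of 23 pairs, from -0.177 to 0.375, 10 correlating best with their own number). Same numbers mostly share an experiment too, so these values do not settle whether the numbers pair the samples. The main fits leave the numbers out. With the replicate block the counts were 6, 11 and 11 in myoblasts and 1, 9 and 10 in differentiated cells at 1 h, 3 h and 6 h, 13 and 10 for 6 h against 1 h, and 1 between stages at 3 h. Depth limits Itga1, Itga8, Itga9 and Itga11, which have few counts.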
